A study of Bos taurus with 2 samples.

Results

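The family of microRNAs (miRNAs) that mir-28, mir-151 and mir-708 form was followed in small RNA libraries of the bovine mammary gland, where it was represented by mir-151-3p, mir-28-5p and mir-708-5p. These are 3 of the 283 known bovine miRNAs listed, and of 884 unique miRNAs in all. The members were chosen by name, as every arm of mir-28, mir-151 and mir-708 in the table of known miRNAs, and the family was proposed with counts of these same libraries in view. The values below are therefore a description, and no test was made on them. The lactation library came from the mammary gland of 1 Holstein dairy cow that was 6 years old and had been in milk for 2 months. The non-lactation library came from 1 Holstein dairy cow that was 4 years old and was neither lactating nor pregnant. With 1 library per condition, stage, age and animal cannot be told apart, and the intervals given cover counting error only. Amplified copies of a molecule are not independent, so the intervals may be too narrow even for that error. In tissue libraries of this kind, fewer cells of a type and less RNA per cell cannot be told apart either. The libraries are called lactation and non-lactation in what follows.

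A miRNA is cut from a hairpin in a longer transcript. The strand from either side of the hairpin, called the 5p or the 3p arm, can be loaded into an Argonaute protein, and its seed (bases 2 to 8) pairs with target mRNAs. Hairpins of this family are held to have arisen from old transposable elements of the LINE type, where copies in opposite orientation fold back on each other. The deposited tables hold no repeat annotation, so this origin was not tested. In the mammary gland, miRNAs have been studied for epithelial growth and milk synthesis, among other subjects.

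The sequences show what the members have in common. Printed here is the most abundant sequence listed for each 5p entry, 5′ to 3′, with the seed in capitals. The last belongs to a conserved group (prefix PC) of miRNAs that the authors recognised from other mammals.
mir-28-5p: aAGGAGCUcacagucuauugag
mir-708-5p: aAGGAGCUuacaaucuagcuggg
PC-151-5p: uCGAGGAGcucacagucuagu

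The seed AGGAGCU was shared by mir-28-5p and mir-708-5p and by no other of the 884 entries, which held 578 seeds. Aligned from their first base, mir-28-5p and mir-708-5p had the same base at 16 of 22 positions. The seed of PC-151-5p, CGAGGAG, occurred in no other entry. The body of PC-151-5p was nevertheless close to mir-28-5p, with an unbroken run of 16 nt in common. This run is in capitals here.
mir-28-5p: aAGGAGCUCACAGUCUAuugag
PC-151-5p: ucgAGGAGCUCACAGUCUAgu

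It covered bases 2 to 17 of mir-28-5p and bases 4 to 19 of PC-151-5p, so the shared run starts 2 bases later in PC-151-5p and the seeds differ. The run in common with mir-708-5p was 7 nt.

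Each known member was listed at 1 locus of the bovine genome BTA 4.0. The mir-28 hairpin (86 nt) was at chr1:80395799-80395884 on the minus strand, the mir-151 hairpin (69 nt) at chr14:2275085-2275153 on the plus strand, and the mir-708 hairpin (109 nt) at chr29:17503322-17503430 on the plus strand. In the RefSeq annotation of another assembly, ARS-UCD2.0, MIR28 lies within LPP, a gene of focal adhesions. MIR151 lies there within PTK2, which encodes focal adhesion kinase, and MIR708 within TENM4, a teneurin. The chromosomes and hairpin lengths were the same in both sources, and whether the hairpins are exonic or intronic was not examined.

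No other arm of mir-28 or mir-708 was listed. For mir-151 the known table held only the 3p arm, while the conserved table held a 5p and a 3p entry under the same number. PC-151-5p and PC-151-3p were placed by the authors on a hairpin of 97 nt named for its human, mouse, rat, horse and dog homologs, with no bovine position. In that hairpin PC-151-5p covered bases 16 to 36 with 21 of 21 bases matching. PC-151-5p was taken as the 5p arm of mir-151 on the basis of its number and of the hairpin it was placed on, and not by a shared position. PC-151-3p had 0 reads in lactation and 3 reads in non-lactation and is not considered further.

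The family was a minor part of the miRNA reads. The authors gave a count for the main, that is the most abundant, sequence of a miRNA and a second count that adds its isomiRs, which vary in length or sequence. Summed over all entries, the main sequences came to 5745961 reads in lactation and 7879028 in non-lactation. The 3 known members held 836 and 1743 of these, or 0.0148% and 0.0228% of the reads of known miRNAs. With the PC-151 entries added, the hairpins held 0.0394% of all listed reads in lactation and 0.0334% in non-lactation, the opposite order. Levels are in RPM, the reads of an entry per 1000000 clean reads of its library, which are the reads left after the authors' filters. Ratios are lactation over non-lactation, with exact 95% intervals.

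The 5p arm of mir-151 was the most abundant entry of the family in the lactation library, while the 3p arm was the most abundant in non-lactation. PC-151-5p had 1426 reads in lactation and 886 in non-lactation, or 119 and 55.5 RPM, a ratio of 2.15 (1.97 to 2.34). mir-151-3p had 494 reads in lactation and 1395 in non-lactation, or 41.3 and 87.4 RPM, a ratio of 0.473 (0.426 to 0.524). The level of mir-151-3p was thus 2.12-fold (1.91 to 2.35) lower in the lactation library, and it ranked 102nd of 265 known miRNAs there against 81st of 266 in the other library. If PC-151-5p is the 5p arm of mir-151, as taken here, the arms of a single hairpin differed between the libraries in opposite directions. The ratios of 2.15 and 0.473 are of similar size for the most abundant sequence scaled to clean reads, but were 1.79 and 0.394 with TMM scaling and 1.92 and 0.662 with all isomiRs.

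By their most abundant sequence, the remaining members, which share a seed, also differed in direction. With all isomiRs this did not hold, as mir-708-5p then had a ratio of 1.03 (0.866 to 1.23). mir-28-5p had 268 reads in lactation and 204 in non-lactation, or 22.4 and 12.8 RPM, a ratio of 1.75 (1.46 to 2.11). mir-708-5p had 74 and 144 reads, or 6.18 and 9.02 RPM, a ratio of 0.686 (0.511 to 0.914), with the fewest reads and the widest interval of the family. In the lactation library mir-28-5p was the 116th and mir-708-5p the 161st of the known miRNAs, and in non-lactation the 127th and the 136th.

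**Figure D1:**
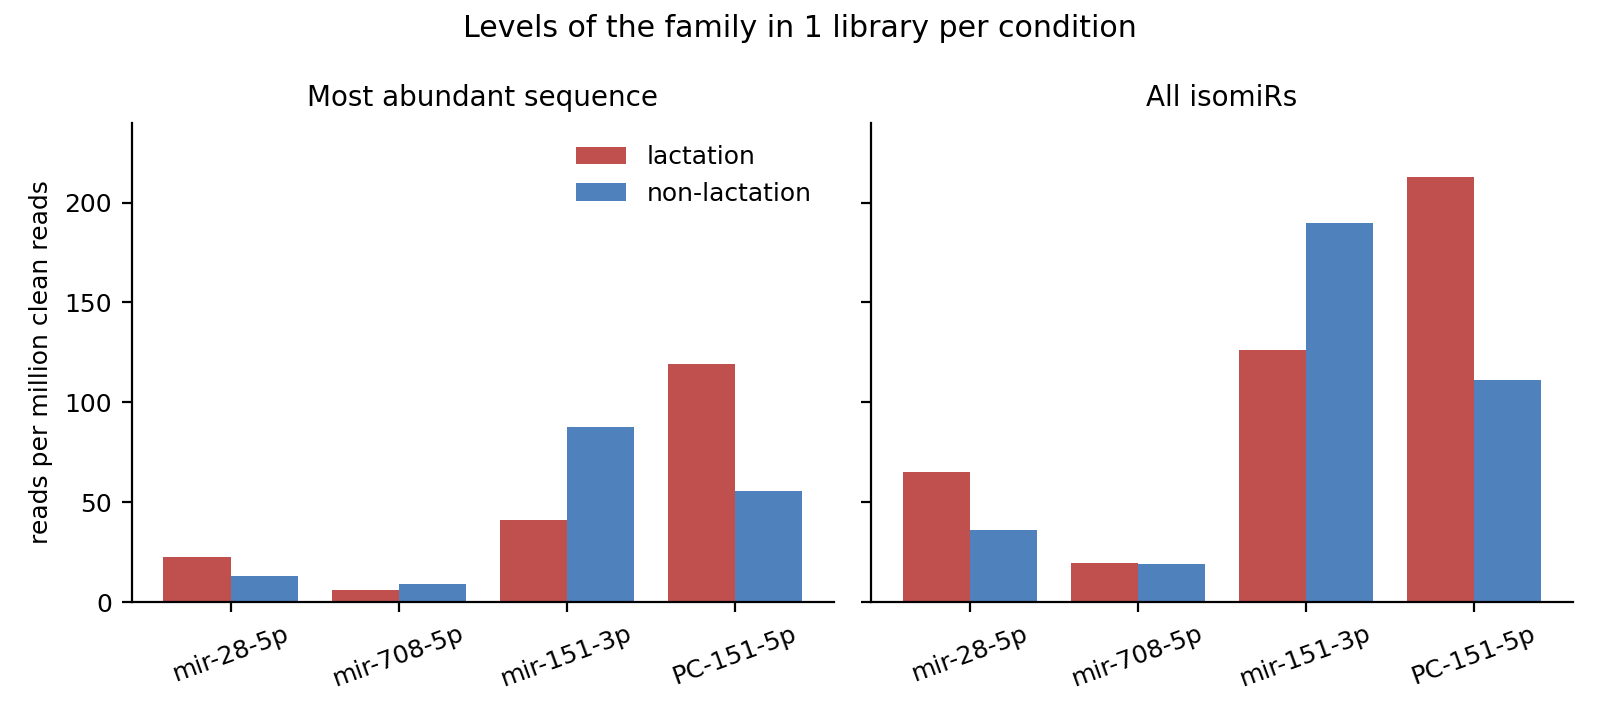
Bars give the level of each entry in the lactation and non-lactation libraries in RPM, for the most abundant sequence (left) and for all isomiRs (right), with 1 library per condition and no error bars. PC-151-5p (119 and 55.5 RPM) and mir-28-5p (22.4 and 12.8 RPM) are higher in the lactation library in both panels, mir-151-3p (41.3 and 87.4 RPM) is lower in both, and mir-708-5p is lower on the left only.

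Differences of this size were common in these libraries. Among 273 miRNAs with 100 summed reads or more, a level higher by 2-fold or more in lactation was seen for 28.9% and a level lower by 2-fold or more for 22.7%, with a median log2 ratio of 0.24 and quartiles of -0.81 and 1.15. With TMM scaling these shares were 21.6% and 26.0%, and with no scaling 18.3% and 30.4%. PC-151-5p (log2 ratio 1.10) was past 2-fold on the higher side and mir-151-3p (-1.08) on the lower side, while mir-28-5p (0.81) and mir-708-5p (-0.54) were not. Scaling by TMM moved every log2 ratio by -0.26, by DESeq2 size factors by -0.28 and by no scaling at all by -0.42. PC-151-5p then had ratios of 1.79, 1.77 and 1.61, short of 2-fold, whereas mir-151-3p had 0.394, 0.389 and 0.354. Scaled to the listed isomiR reads, mir-151-3p had a ratio of 0.509, just short of 2-fold. The direction of each of the 4 entries was the same under these and the other scalings.

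**Figure D2:**
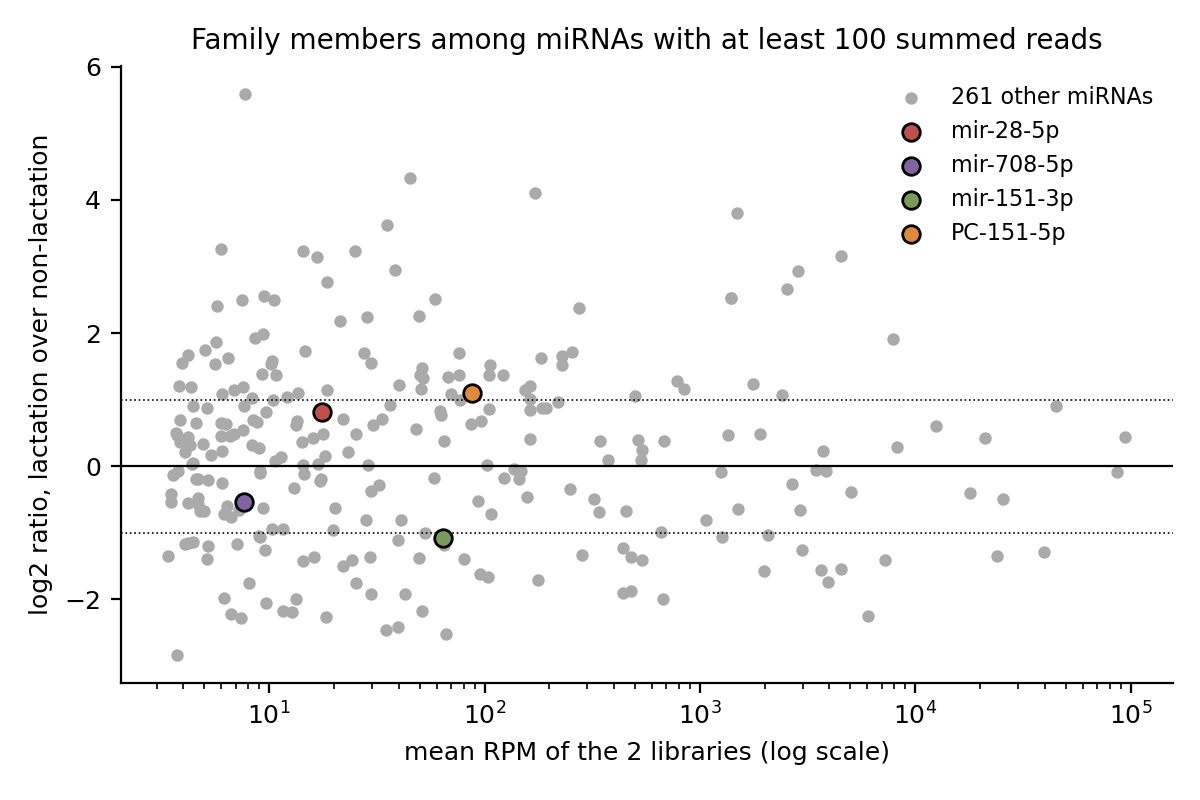
Each point is a miRNA with at least 100 summed reads, with its mean RPM on a log axis and its log2 ratio of lactation over non-lactation. Dotted lines mark 2-fold, and 8 miRNAs listed at 0 in a library are not drawn. The family lies within the spread of the 261 other miRNAs drawn, with PC-151-5p (1.10) just above the upper line and mir-151-3p (-1.08) just below the lower line.

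The known miRNAs with the most similar ratios were found among 104 with at least 1000 summed reads, by the absolute difference of log2 ratios over the 2 libraries. Nearest to mir-151-3p were mir-23b-3p (ratio 0.476), mir-411-5p (0.465) and mir-191-5p (0.488). Nearest to PC-151-5p were mir-126-3p (2.12), from an endothelial hairpin, mir-24-3p (2.09) and mir-429-3p (2.22) of the epithelial mir-200 family. For mir-28-5p they were mir-374a-5p (1.77), mir-339-5p (1.82) and mir-193a-3p (1.83), and for mir-708-5p they were mir-181b-5p (0.692), mir-195-5p (0.712) and let-7c-5p (0.713). With a single ratio per miRNA this likeness rests on 2 libraries.

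Within each library, the share of reads from either arm does not depend on the library total. The 5p arm gave 74.3% (exact 95% binomial interval 72.3 to 76.2) of the 1920 reads of both arms of mir-151 in the lactation library. It gave 38.8% (36.8 to 40.9) of 2281 reads in non-lactation. With PC-151-5p taken as the 5p arm, the leading arm by reads was thus 5p in lactation and 3p in non-lactation. The 5p share differed by 35.4 percentage points. How evenly arms of different sequence are recovered as reads was not tested, so leading means only having more reads. The ratio of 5p to 3p reads was 2.89 in lactation and 0.635 in non-lactation, a 4.54-fold difference (3.97 to 5.20). Counting all isomiRs, the 5p arm gave 62.8% (61.3 to 64.3) of 4053 reads and 36.9% (35.5 to 38.2) of 4805 reads, and the arm ratio differed 2.90-fold (2.65 to 3.16). The leading arm of each library was the same by both counts, and the difference was smaller with all isomiRs.

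**Figure D3:**
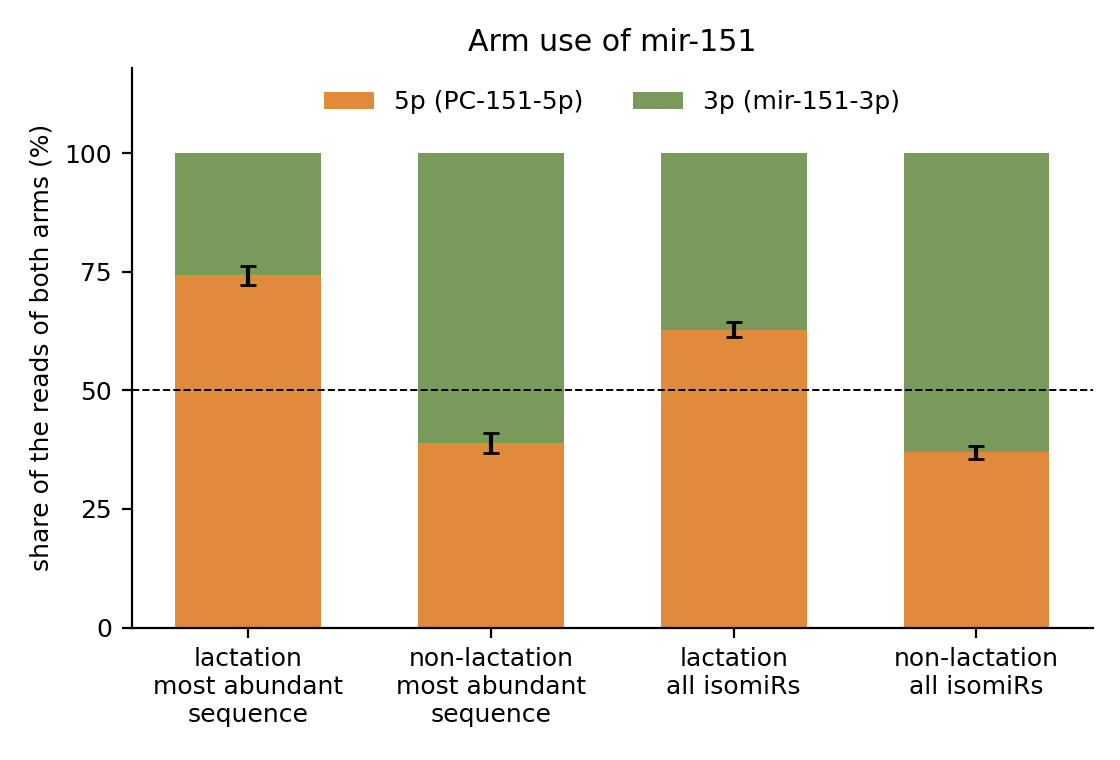
Stacked bars give the share of the reads of both arms of mir-151 that came from the 5p and the 3p arm in each library, for the most abundant sequence and for all isomiRs. Bars on the 5p share are exact 95% binomial intervals and the dashed line is at equal reads of the arms. The 5p share is 74.3% and 62.8% in lactation and 38.8% and 36.9% in non-lactation.

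Taken as a sum, the arms of mir-151 differed little. They gave 160 RPM in lactation and 143 RPM in non-lactation, a ratio of 1.12 (1.06 to 1.19), and 1.13 (1.08 to 1.17) with all isomiRs. This small difference changed direction with the scaling, to 0.937 with TMM, 0.924 with DESeq2 size factors and 0.842 with none.

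Arm use of mir-151, paired here without a shared position, was then set beside that of hairpins whose arms were listed at identical coordinates. There were 144 such pairs, of which 95 had at least 100 reads of both arms together in each library. The leading arm differed between the libraries in 2 of these 95 (2.11%). These were mir-193a, with 5p shares of 65.8% in lactation and 40.4% in non-lactation, and mir-382-5p with CN-362-3p (prefix CN for candidates predicted from the genome), with 49.5% and 57.5%. The median change of the 5p share was 0.473 percentage points, its 90th percentile was 6.74, and none of the 95 pairs had a change above the 35.4 points of mir-151. With a minimum of 20 reads there were 127 pairs, of which 3 differed in leading arm, and CN-165-5p with mir-1307-3p changed by 88.5 points (968 and 126 reads in lactation, 0 and 74 in non-lactation). In most hairpins a single arm held nearly all the reads, the lesser arm having a median of 0.905%.

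In 6 of the 95 pairs the lesser arm held above 25% of the reads of both libraries, as in mir-151. Their 5p shares differed by 0.625 points in mir-142, by 2.17 in mir-33a, by 8.06 in mir-382, by 13.2 in mir-362, by 17.1 in mir-136 and by 25.4 in mir-193a, against 35.4 in mir-151. As a fold, the change of arm ratio was less unusual. Of 82 pairs whose lesser arm had at least 10 reads over both libraries, 21 (25.6%) moved at least 2-fold. Of them, 4 moved by more than mir-151, each with a lesser arm of at most 37 reads in a library. Among these 4, CN-395-5p with mir-29c-3p had 0 reads of the 5p arm in lactation and 24 in non-lactation, with the 0 set to 3 reads. With all isomiRs, 113 pairs had enough reads, the arm ratio moved at least 2-fold in 40.2% of those with enough reads of the lesser arm, and 1 pair had a change of 5p share above the 26.0 points of mir-151. That pair was again CN-165-5p with mir-1307-3p, where the 5p entry had 1750 isomiR reads in lactation and was listed at 0 in the other.

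**Figure D4:**
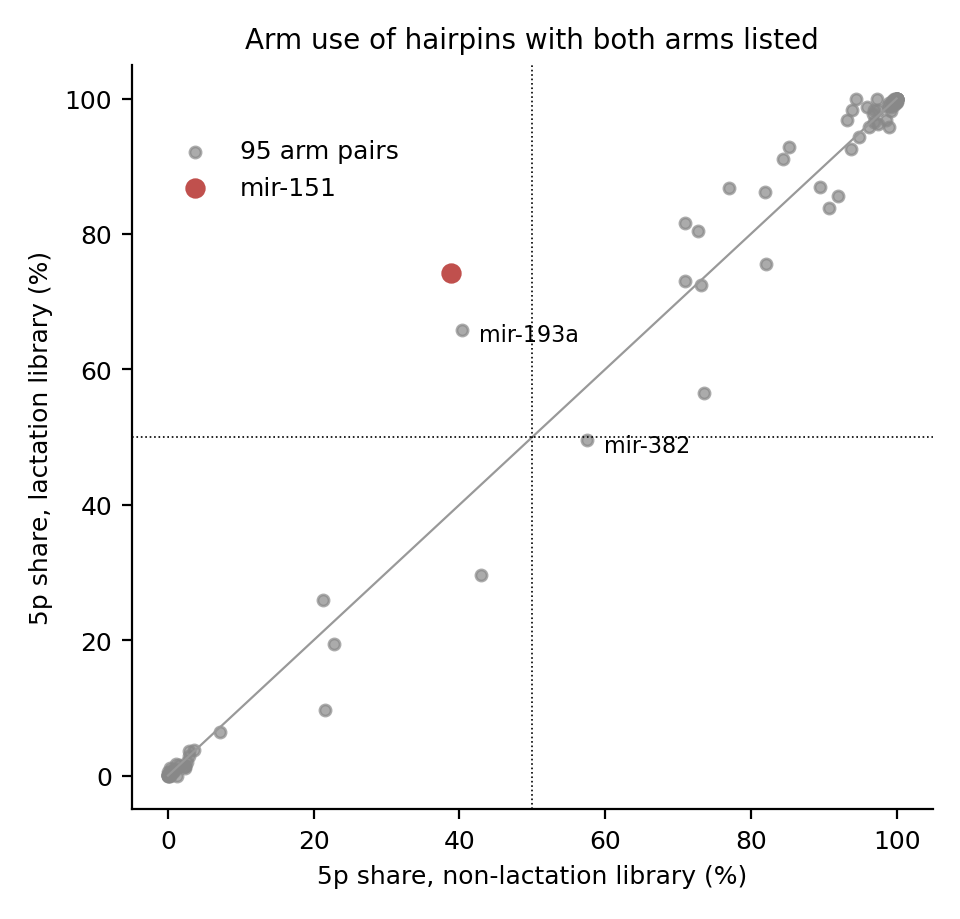
The 5p share of each hairpin in the lactation library is plotted against that in non-lactation, for 95 pairs of arms at identical coordinates and for mir-151. Dotted lines mark equal reads of the arms and the solid line equal shares in both libraries. The mir-151 point, at 38.8% and 74.3%, lies farthest from the solid line, on the same side as mir-193a.

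The share of the most abundant sequence among the isomiRs differed between the libraries for mir-151-3p and mir-708-5p, and hardly for mir-28-5p. The most abundant sequence of mir-151-3p made up 32.8% (30.4 to 35.2) of its 1506 isomiR reads in lactation and 46.0% (44.2 to 47.8) of 3034 in non-lactation. The other isomiRs of mir-151-3p, with 1012 and 1639 reads, had a ratio of 0.824 (0.761 to 0.892), nearer to 1 than the 0.473 of the most abundant sequence. All its isomiRs together had a ratio of 0.662 (0.622 to 0.705), so this arm was past 2-fold only by its most abundant sequence.

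In mir-708-5p the direction depended on this choice. Its most abundant sequence held 31.5% (25.6 to 37.8) of 235 isomiR reads in lactation and 47.4% (41.6 to 53.1) of 304 in non-lactation. Its other isomiRs, with 161 and 160 reads, had a ratio of 1.34 (1.07 to 1.68), and all its isomiRs a ratio of 1.03 (0.866 to 1.23), an interval that holds 1. The direction given for mir-708-5p above therefore applies to its most abundant sequence alone.

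The 5p arms of mir-28 and mir-151 kept their direction by either count. mir-28-5p had 777 isomiR reads in lactation and 575 in non-lactation, a ratio of 1.80 (1.62 to 2.01), and its most abundant sequence held 34.5% (31.1 to 38.0) and 35.5% (31.6 to 39.5). PC-151-5p had 2547 and 1771 isomiR reads, a ratio of 1.92 (1.81 to 2.04), just short of 2-fold, and its most abundant sequence held 56.0% (54.0 to 57.9) and 50.0% (47.7 to 52.4).

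For comparison, the most abundant sequence held a median of 45.0% in lactation and 45.2% in non-lactation among 176 known miRNAs with at least 100 isomiR reads in each. The share differed between the libraries by a median of 5.33 percentage points in either direction. It differed by more than the 13.2 points of mir-151-3p in 23 of the 176, by more than the 15.9 points of mir-708-5p in 13, by more than the 5.96 points of PC-151-5p in 77 and by more than the 0.987 points of mir-28-5p in 155. The number of kinds of isomiR was 27 and 25 for mir-151-3p, 33 and 17 for PC-151-5p, 14 and 11 for mir-28-5p, and 7 and 8 for mir-708-5p, in the lactation and non-lactation libraries. Each lay within the range of known miRNAs with similar isomiR reads, such as 14 to 36 kinds beside the 27 of mir-151-3p and 24 to 59 beside the 33 of PC-151-5p.

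**Figure D5:**
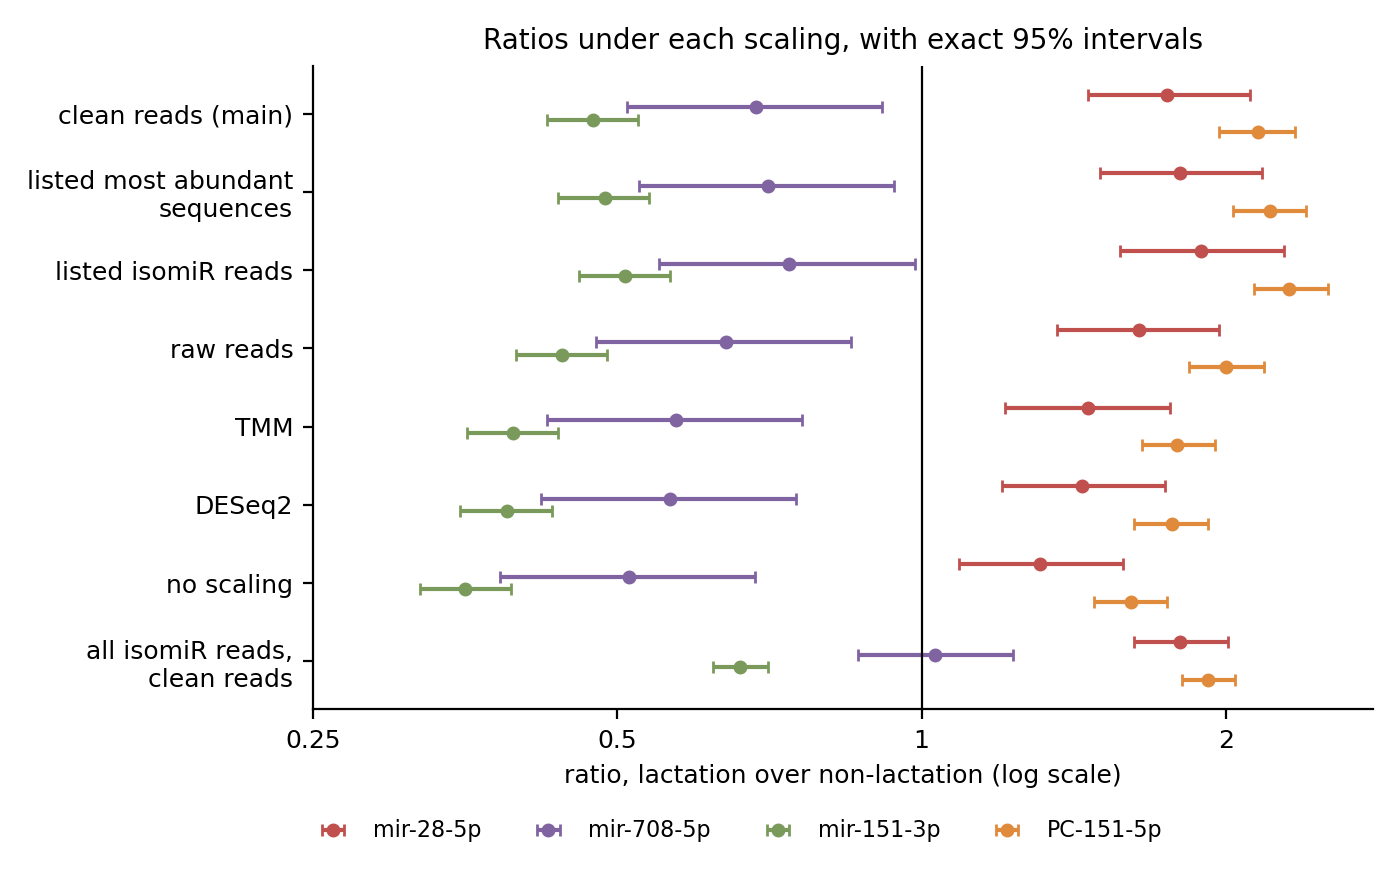
Points give the ratio of lactation over non-lactation for each entry on a log axis, with exact 95% intervals, under each scaling of the most abundant sequence and, in the last line, for all isomiRs. PC-151-5p and mir-28-5p stay above 1 and mir-151-3p below 1 in every line, and mir-708-5p moves from 0.686 to 1.03 in the last line.

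Several lists of miRNAs that mark cell types also differed between the libraries. They are to be read against the 28.9% of all miRNAs at least 2-fold higher and the 22.7% at least 2-fold lower. Of 7 epithelial miRNAs, 6 were higher in lactation, by 2-fold or more, and mir-205-5p was lower (median log2 ratio 2.53, summed levels of 15169 and 2797 RPM). Of 8 miRNAs of stroma and smooth muscle, 3 were higher and 5 lower (median -1.56, 11529 and 23097 RPM), 1 and 5 of them by at least 2-fold. The higher ones were mir-143-3p (ratio 2.35) and mir-145-5p (1.17) of smooth muscle, and mir-214-3p (1.73, with 26 and 20 reads). The lower ones were mir-199a-3p (0.211), mir-199b-5p (0.265), mir-100-5p (0.326), mir-99a-5p (0.336) and mir-125b-5p (0.340). The 3 miRNAs of striated muscle were higher (median 2.67, 4480 and 696 RPM). Most of their reads were of mir-1-3p (52558 and 11041). With 13 and 5 reads, mir-206-3p was short of the 100 summed reads asked of all miRNAs. The endothelial mir-126-5p was also higher (392 and 120 RPM). Blood cell miRNAs had similar summed levels (126 and 120 RPM). Of 4 with a ratio, 1 was higher and 3 lower, 1 and 1 of them by at least 2-fold. The higher one was mir-451-5p, with 889 reads in lactation and 475 in non-lactation, past 2-fold. The lower ones were mir-223-3p (24 and 67 reads), also past 2-fold, mir-142-5p (423 and 1128) and mir-150-5p (167 and 242). No ratio was given for mir-144-3p, which had 3 reads and 0. The part of these lists in the levels and arm use of the family was not tested. Of other miRNAs held to come from the same class of repeat, mir-95-3p had 12 reads in lactation and 24 in non-lactation, a ratio of 0.667, and mir-325 was not among the listed entries.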

How the data were processed

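Mammary small RNA of 1 cow per condition was sequenced on an Illumina Genome Analyzer. The study's methods name a Qiagen miRNeasy kit for the RNA, and the labels Trizol. The authors trimmed adaptors, removed reads of low quality or of other RNA classes, passed reads through Rfam and Repbase, and mapped them with ACGT101-miR to miRBase 17.0 and BTA 4.0. The effect of the Repbase step on repeat-derived miRNAs was not tested. The deposited values are raw read counts per miRNA, for its most abundant sequence and all isomiRs, and counts of isomiR kinds. For CN entries, isomiR columns were taken as kinds and then reads, the order the values allow, and 7 isomiR sums were left out.

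Reads were scaled to the clean reads stated by the study. Ratios carry exact conditional Clopper-Pearson intervals and shares exact binomial ones, both at 95%. The intervals were tested on simulated counts drawn independently, the setting they assume, so this does not cover amplified copies. With 1 library per condition, no p-value was computed. The members, lists, thresholds and alternatives were chosen with earlier results of these data known. Named miRNAs are the members, their other arms, entries sharing their seed, the 3 nearest known miRNAs by log2 ratio, mir-95, mir-325 and marker lists. Arm pairs named beside counts, and the comparisons of isomiR share changes, were chosen after their values were seen. Scaling factors came from edgeR 4.0.16 (TMM) and from DESeq2 1.42.0, run in R 4.3.3. All else was done in Python 3.11.15 (scipy 1.17.1, numpy 2.4.6, pandas 2.3.3), and plots in matplotlib 3.10.9. RefSeq (ARS-UCD2.0) gave host gene names. Hairpin sequences of bovine mir-151 were not used here, and the sequence of its 3p arm is not reported here.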

Additional observations from a re-analysis of the deposited data

How the results depend on the processing

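A single library per condition gives no replicate error, and no library could be left out. No paired analysis was possible because each condition had 1 library. Depth limits mir-708-5p most, with 74 and 144 reads. For mir-151-3p the ratio of 0.473 became 0.394 with TMM, 0.389 with DESeq2 size factors, 0.354 with no scaling and 0.662 with all isomiRs. For its isomiRs other than the most abundant sequence, an alternative chosen after seeing the data, it was 0.824. For mir-28-5p, 1.75 became 1.44 with DESeq2 size factors and 1.31 with no scaling. For mir-708-5p, 0.686 became 1.03 with all isomiRs, the reverse direction. For PC-151-5p, 2.15 became 1.79 with TMM, 1.77 with DESeq2 size factors, 1.61 with no scaling and 1.92 with all isomiRs. The ratio of both arms of mir-151 together, 1.12, was 1.21 when scaled to the listed isomiR reads and 1.05 to raw reads, and turned direction to 0.937 with TMM, 0.924 with DESeq2 size factors and 0.842 with no scaling. These scalings of the sum were chosen after seeing the data. With all isomiRs the 5p share in the lactation library was 62.8% in place of 74.3%, and the difference of arm ratio 2.90-fold in place of 4.54-fold. The share of arm pairs that moved at least 2-fold was then 40.2% in place of 25.6%. The share of miRNAs past the fold was 10.6% higher and 5.86% lower at 4-fold, and 18.3% higher with no scaling. Of 61 alternatives, the other 38 moved no ratio or share beyond its own interval and no count or percentage by over 1.5 times. A further match of arms by number, chosen after seeing the data, gave 5 other pairs, of which 0 changed their leading arm. This match is a poor guide to arm use, because mir-126, mir-22 and mir-193a were also paired by coordinates with other, more abundant entries. By number mir-193a had 17 and 2873 reads in lactation and 0 and 2094 in non-lactation, with no change of leading arm. By coordinates it had 5538 and 2873 reads, then 1419 and 2094, and the leading arm changed. The arms of mir-151 likewise lack a shared position. The causes of these shifts between the most abundant sequence and all isomiRs were not tested.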
